A study of Mus musculus with 12 samples.

Results

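The translation initiation and elongation factors are the genes whose proteins bring the ribosome, the initiator transfer RNA and the messenger RNA together and then move the ribosome along. They were taken by symbol: every gene of the GENCODE vM21 mouse annotation with a symbol starting Eif1 to Eif6, Eef1 or Eef2. Of 79 such symbols, 2 were left out by name (Eif2ak2 and Eif4ebp1) and 10 as pseudogenes, which left 67 members of 55421 genes counted. They fall into 12 role groups. Of the members 66 are protein coding, and Eif2c5, a long noncoding gene with an older Argonaute-type symbol and no count here, is the exception. The rule uses no expression value.

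Messenger RNA was sequenced from cultured mouse cells in 12 libraries, as 4 groups of 3. ID8 is a cancer line from female ovarian surface epithelium, labelled as wildtype C57BL6J. PMJ2R is a macrophage line from the peritoneum of C57BL6J mice that carries the v-raf and v-myc oncogenes, so every PMJ2R group holds those oncogenes, treated or not. Each line was measured as an untreated control and after 6 h with 5 nM rebastinib, a small-molecule kinase inhibitor directed at the angiopoietin receptor TIE2. Nothing in the labels tells whether the 3 libraries of a group were grown separately, and the p-values then cover the spread among these libraries alone, possibly a technical spread. The comparisons ask how rebastinib changed the transcripts of translation factors in the tumour line and in the macrophage line, whether the lines differed in that change, and how untreated cells of the lines differ.

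Initiation runs through a chain of complexes. The factor eIF2 carries the initiator transfer RNA to the small ribosomal subunit and is recharged by eIF2B, while kinases that phosphorylate eIF2 block the recharging and lower initiation under stress. eIF4F binds the cap of the messenger RNA, eIF3 joins it to the ribosome, and eIF1, eIF1A and eIF5 check the start codon before eIF5B joins the large subunit. In elongation, eEF1A delivers each aminoacyl transfer RNA, the eEF1B subunits recharge eEF1A, and eEF2 moves the ribosome by a codon. Many of these messengers belong to the class that starts with a pyrimidine tract and whose translation depends on mTORC1.

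Library totals ran from 19025504 to 27070556 counts. Of 12 macrophage markers, all stood at 1 CPM or more in PMJ2R and 3 did in ID8. Of 12 markers of ovarian epithelium and mesothelium, all did in ID8 control cells, 10 in ID8 with rebastinib and 0 in PMJ2R, while 4 of 8 fibroblast markers did in ID8 and 0 of 8 lymphocyte markers did in any group. Rebastinib libraries differed from control in measures of RNA composition, without overlap. Genes overlapping ribosomal RNA took 0.211% of counts in ID8 control, 1.23% in ID8 with rebastinib, 0.128% in PMJ2R control and 5.82% in PMJ2R with rebastinib. Mitochondrially encoded genes took 3.02%, 4.94%, 3.76% and 5.64% in the same order. Cytosolic ribosomal protein genes, of which 83 were summed, took 4.91%, 9.65%, 5.33% and 7.73%. The part of these differences in the results below was not tested, and the labels give no batch, so handling and treatment cannot be told apart. In such bulk libraries, fewer cells of a type and less RNA per cell cannot be told apart either.

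Translation factor transcripts were mostly higher after rebastinib in both lines. In ID8, 61 of the 67 members passed the filter on low counts. Of these, 45 rose, 4 fell and 12 were not called at an adjusted p under 0.05 in edgeR's quasi-likelihood test. Most genes were called in this comparison: 80.4% of all 14829 genes tested, of which 38.4% were higher and 42.0% lower. The members were called about as often as all genes, and their calls were mostly in the higher direction. Their median log2 fold change was 0.69, beside −0.07 over all genes tested. In PMJ2R, 42 of 61 tested members rose, 14 fell and 5 were not called, beside 83.7% of 14010 genes called, 40.1% higher and 43.6% lower. The median there was 0.60, beside −0.05 over all genes.

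The level of these genes matters for that background. Among genes at a mean of 50 CPM or more, a comparison added after the data were seen, 59.5% rose and 25.8% fell in ID8, with a median of 0.37, while 38 of 46 such members rose and 2 fell, with a median of 0.73. In PMJ2R 65.4% of such genes rose and 25.3% fell, with a median of 0.46, while 37 of 48 members rose and 8 fell, with a median of 0.76. The scaling matters as well. When library totals alone set the scale, the median of all genes moved to −0.50 in ID8 and −0.60 in PMJ2R. The members' medians moved with it to 0.26 and 0.04, and 32 members were then higher and 17 lower in ID8, 27 higher and 25 lower in PMJ2R. In ID8 13 of the higher calls were then lost, those of Eif2a, Eif2d, Eif2s1, Eif2s3x, Eif2b5, Eif2ak3, Eif3a, Eif3g, Eif3j2, Eif4g1, Eif4enif1, Eef1a1 and Eef1akmt3, of which Eif2s1 and Eif4g1 were called lower. In PMJ2R 15 were lost, those of Eif2b2, Eif2ak3, Eif3j1, Eif3k, Eif3l, Eif4a3, Eif4e3, Eif4g2 and Eef2k, and of Eif1b, Eif4a1, Eif4enif1, Eif4g1, Eif5 and Eif6, which were called lower. Over all genes the share of calls that were higher moved from 47.7% to 29.5% in ID8 and from 47.9% to 26.3% in PMJ2R. The gap between the members' median and that of all genes was 0.76 in ID8 and 0.64 in PMJ2R under either scaling. A change of scaling moves all genes of a comparison nearly alike, so this gap was bound to stay and is no check of the scaling.

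**Figure D1:**
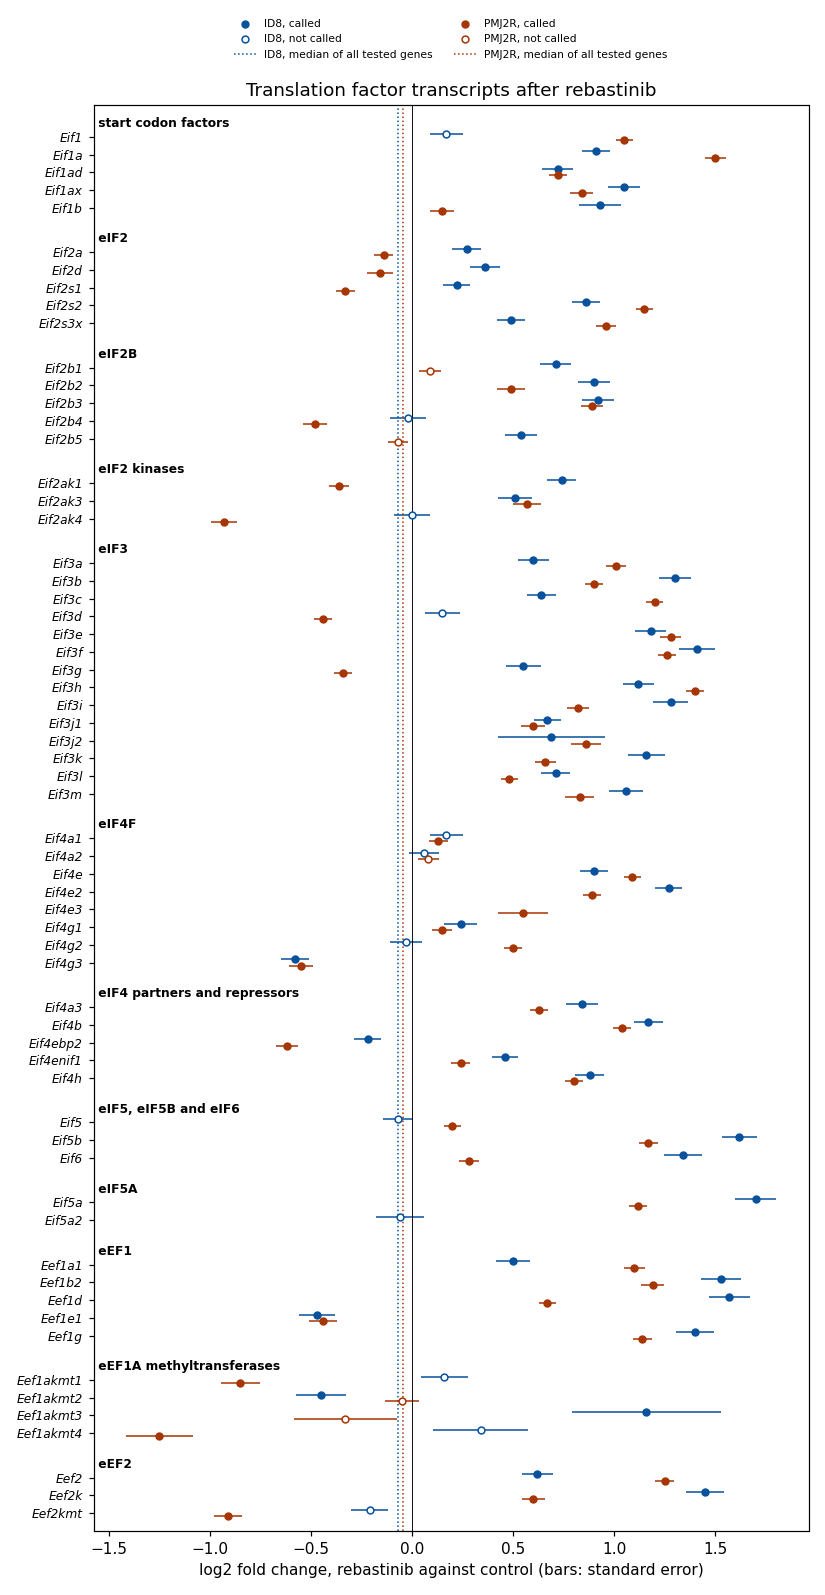
Log2 fold change with rebastinib (x axis, bars show the standard error) for each tested translation factor gene, ordered by role. Filled points were called and open points were not, and dotted lines mark the median of all genes tested (−0.07 in ID8 and −0.05 in PMJ2R). Most points lie to the right of those lines, from Eif5a at 1.70 in ID8 to Eef1akmt4 at −1.25 in PMJ2R.

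Of 60 members tested in both lines, 37 (61.7%) were higher in both, beside 29.9% of the 12398 genes tested in both, and 3 were lower in both, beside 30.2%, namely Eif4g3, Eif4ebp2 and Eef1e1. With library totals alone, 36.7% of members were higher in both and 23.3% lower in both, beside 13.6% and 46.5% of all genes. Another 5 members (8.33%, beside 5.58% of all genes) were higher in ID8 and lower in PMJ2R: Eif2a, Eif2d, Eif2s1, Eif2ak1 and Eif3g. Eif4a2, which encodes an RNA helicase of eIF4F, was called in neither line. In shares of all counts, the members together took 2.85% ± 0.0733 in ID8 control and 3.56% ± 0.0129 with rebastinib, and 3.48% ± 0.0727 in PMJ2R control and 4.49% ± 0.0343 with rebastinib (SD, n = 3). The libraries did not overlap between treatment groups in either line. These shares are not touched by the scaling between libraries, but they depend on what else takes counts.

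A few members carried a large share of these counts. Eef1a1, Eef2, Eif5a and Eef1g together made up 50.2% of the members' counts in ID8 control, 51.1% in ID8 with rebastinib, 49.4% in PMJ2R control and 57.3% in PMJ2R with rebastinib. On a scale per exon length, Eef1a1 had the highest level of all members, at 2790 ± 156 RPKM in ID8 control, 3940 ± 79.3 in ID8 with rebastinib, 3530 ± 108 in PMJ2R control and 7240 ± 97.0 in PMJ2R with rebastinib. Eef2 was next with 894 ± 31.2, 964 ± 16.8 and 2200 ± 51.6 RPKM in ID8 control, PMJ2R control and PMJ2R with rebastinib. In ID8 with rebastinib Eef2 at 1370 ± 28.5 and Eif5a at 1380 ± 201 RPKM were within their spread of each other, and on the length of the longest transcript alone Eef2 came after Eif5a and Eef1g there, at 1480 beside 2290 and 1610 RPKM. Eef1g and Eif5a came next in control cells and were within their spread of each other in ID8, at 438 ± 14.0 and 428 ± 15.8 RPKM. Eif4a1 stood at 297 ± 18.8 RPKM in ID8 control and 244 ± 9.18 in PMJ2R control. At the other end, 5 members had fewer than 50 counts over all libraries: Eef1a2, the form of eEF1A made in muscle and nerve, the Y-linked Eif2s3y, the repressor gene Eif4ebp3, Eif4e1b and Eif2c5. The last 2 had no count at all.

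The promoters of the members were read from RefSeq windows of 300 bases on GRCm38.p6, 250 before and 50 after each start site, which 52 members had. CACGTG, a palindromic E-box that basic helix-loop-helix proteins such as MYC bind, was present in 13 of these 52 (25.0%), beside 8.1% of all 27025 genes with a window and 11.6% of the genes tested in ID8 that had one. The windows below show this E-box in capitals. Eef2, Eef2k, Eif3k and Eif4h rose in both lines, while Eif4a1 and Eif4g1 changed little with the same letters in their promoters. In PMJ2R the rises of Eef2k and Eif3k were 0.04 and 0.10 and not called with library totals alone. Among members with the letters but no window shown, Eif1b, Eif3a, Eif3f, Eif4e and Eif5a rose in both lines. With library totals alone, Eif1b was called lower in PMJ2R (−0.40) and Eif3a lost its call in ID8 (0.17). Eef1akmt4 fell by 1.25 in PMJ2R, and Eif5a2 was not called in ID8 (−0.06).
Eef2 (chr10:81176571-81176610, plus strand): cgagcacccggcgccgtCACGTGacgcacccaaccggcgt
Eef2k (chr7:120842783-120842822, plus strand): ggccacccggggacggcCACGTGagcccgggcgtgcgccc
Eif3k (chr7:28981910-28981949, minus strand): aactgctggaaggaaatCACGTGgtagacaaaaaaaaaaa
Eif4h (chr5:134639483-134639522, minus strand): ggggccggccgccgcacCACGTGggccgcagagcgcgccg
Eif4g1 (chr16:20672656-20672695, plus strand): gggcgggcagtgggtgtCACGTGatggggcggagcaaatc
Eif4a1 (chr11:69672590-69672629, minus strand): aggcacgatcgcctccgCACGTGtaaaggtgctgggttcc

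The 13 tested members with CACGTG had a median log2 fold change of 0.88 in ID8, beside 0.53 for the 36 without it. In PMJ2R the values were 0.73 for 12 members with it and 0.36 for 36 without. Over all genes tested the same medians were 0.09 and −0.11 in ID8 and −0.04 and −0.15 in PMJ2R. The letters CCGGAAGT on either strand, the core that ETS factors bind, were in 9 of 52 members' windows (17.3%), beside 4.3% of all genes and 9.2% of the genes tested in ID8 that had a window. With them the members' median was 0.74 in ID8 and 0.48 in PMJ2R, and without them it was 0.55 and 0.59. These medians are a description of few genes, and a match of letters is not a binding site.

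The transcript's start was searched for a sense-strand pyrimidine tract, a C followed by 6 or more C or T, which begins within 20 bases of the annotated start site. It was found for 19 of 52 members (36.5%) and for 24.0% of all genes. The windows below show 4 members with the tract in capitals, of which Eef1a1 and Eif2s3x had the larger log2 fold change in PMJ2R, and Eif3l and Eif3m in ID8. With RLE size factors, the scaling of DESeq2, the differences of Eif3l and Eif3m between lines were not called. All 4 rose in both lines, as did Eef2, Eif1ad, Eif2b2, Eif3f, Eif3k, Eif4b, Eif4e and Eif4enif1, which also have a tract. With library totals alone, Eef1a1, Eif2s3x and Eif4enif1 lost their calls in ID8. Eif2b2, Eif3k and Eif3l lost theirs in PMJ2R, where Eif4enif1 was called lower. Other members with a tract did not rise in both lines. Eef1e1 fell in both lines (−0.47 and −0.44), Eif2ak4 fell in PMJ2R (−0.93) and Eef1akmt2 fell in ID8 (−0.45). Eif2b5 rose in ID8 and was not called in PMJ2R.
Eef1a1 (chr9:78481710-78481739, minus strand): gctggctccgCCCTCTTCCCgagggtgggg
Eif2s3x (chrX:94212632-94212661, minus strand): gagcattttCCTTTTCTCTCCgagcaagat
Eif3l (chr15:79075207-79075236, plus strand): ggcgcggagttCTTCTTCCgctctctccca
Eif3m (chr2:105017027-105017056, minus strand): acggcaccgCTCTCTTTTCCggtcggcgtg
The 16 tested members with a tract had a median of 0.67 in ID8 and 0.69 in PMJ2R, and those without had 0.55 and 0.18. Over all genes the medians with and without a tract differed by little, at −0.12 and −0.09 in ID8 and −0.14 in each case in PMJ2R.

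The start codon factors, grouped by symbols starting Eif1, rose in most cases: 4 of 5 in ID8 and 5 of 5 in PMJ2R. The risers include Eif1ad, at 0.72 in each line, which is in the group by its symbol alone. Its exons share 428 bases with Banf1 on the opposite strand, which had log2 fold changes of 1.43 in ID8 and 0.94 in PMJ2R. Eif1a, which encodes a form of eIF1A that opens the ribosome for scanning, stood at 78.6, 82.9 and 86.0 CPM in ID8 control and at 152, 158 and 154 CPM with rebastinib. In PMJ2R it stood at 111, 114 and 99.6 CPM in control and at 311, 303 and 303 CPM with rebastinib. The groups did not overlap, and the log2 fold change was 0.91 ± 0.0672 (SE) in ID8 and 1.50 ± 0.0522 in PMJ2R (edgeR adjusted p = 1.60e-08 and 1.67e-14). The X-linked Eif1ax, 85.5% identical to Eif1a over the aligned coding bases, rose by 1.05 and 0.84. Eif1, whose product guards start codon choice, was the most abundant of the group. It stood at 333, 317 and 344 CPM in ID8 control and 420, 364 and 334 CPM with rebastinib, which overlap. The PMJ2R values were 181, 190 and 188 CPM in control and 387, 384 and 386 CPM with rebastinib, and every treated library was above every control. The log2 fold change of Eif1 was 1.05 ± 0.0430 in PMJ2R (edgeR adjusted p = 1.40e-13) and 0.17 ± 0.0830 in ID8 (0.0731), and that of its close copy Eif1b was the other way round, 0.15 in PMJ2R and 0.93 in ID8. In ID8 Eif1 was called higher with DESeq2 or RLE size factors (0.21 with each) and lower with library totals alone (−0.27, edgeR adjusted p = 0.00388). Eif1b turned to −0.40 in PMJ2R with library totals alone.

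eIF2 split by subunit in the macrophage line. The beta subunit gene Eif2s2 stood at 291, 304 and 327 CPM in ID8 control and 565, 551 and 553 CPM with rebastinib, and at 250, 245 and 256 CPM and 562, 544 and 563 CPM in PMJ2R. All treated libraries lay above all controls in both lines, with log2 fold changes of 0.86 ± 0.0693 and 1.15 ± 0.0434 (edgeR adjusted p = 3.93e-08 and 4.61e-14). The gamma subunit gene Eif2s3x rose by 0.49 and 0.96, and its ID8 value was 0.06 and not called with library totals alone. The alpha subunit gene Eif2s1 (chr12:78861819-78887010, plus strand, GRCm38), whose product is the one phosphorylated under stress, went its own way. It stood at 130, 136 and 142 CPM in ID8 control and 160, 157 and 159 CPM with rebastinib, and in PMJ2R at 245, 236 and 239 CPM in control and 192, 184 and 199 CPM with rebastinib. The groups did not overlap in either line, and Eif2s1 rose by 0.22 ± 0.0649 in ID8 and fell by 0.33 on the log2 scale in PMJ2R (edgeR adjusted p = 0.00591 and 2.88e-06). The alternative initiator factors Eif2a and Eif2d also rose in ID8 (0.27 and 0.36) and fell in PMJ2R (−0.14 and −0.16).

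eIF2B, the exchange factor that recharges eIF2, rose in ID8 for 4 of its 5 subunit genes with a median of 0.71, and in PMJ2R for 2 of 5 with 1 lower and a median of 0.09. Eif2b3, for the gamma subunit, stood at 21.5, 22.5 and 22.6 CPM in ID8 control and 42.7, 39.6 and 43.5 CPM with rebastinib. In the macrophage line its values were 46.6, 45.0 and 43.0 CPM in control and 81.5, 82.4 and 85.4 CPM with rebastinib. It was the subunit with the closest values between lines, at 0.92 ± 0.0810 and 0.89 ± 0.0544 (edgeR adjusted p = 9.63e-08 and 3.31e-11). Eif2b2, for the beta subunit, stood at 39.9, 36.9 and 39.3 CPM in ID8 control and 77.6, 72.5 and 67.2 CPM with rebastinib, and rose by 0.90 there and by 0.49 in PMJ2R, where it was −0.07 and not called with library totals alone. The catalytic epsilon subunit gene Eif2b5 stood at 76.8, 79.0 and 88.2 CPM in ID8 control and 124, 123 and 109 CPM with rebastinib, and at 94.1, 101 and 95.9 CPM and 91.6, 94.1 and 92.0 CPM in PMJ2R. It rose by 0.54 in ID8, a call lost at 0.11 with library totals alone, and was not called in PMJ2R, at −0.07. Eif2b4, for the delta subunit, was not called in ID8 and fell by 0.48 in PMJ2R, and 204 bases of its exons are shared with Snx17 on the opposite strand.

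The eIF2 kinases each sense another stress and behaved unlike each other. Eif2ak1 (chr5:143817788-143904251, plus strand), for the heme-regulated kinase HRI, stood at 78.7, 77.7 and 82.7 CPM in ID8 control and 143, 128 and 130 CPM with rebastinib. In PMJ2R it stood at 84.3, 87.0 and 84.1 CPM in control and 66.2, 66.4 and 66.2 CPM with rebastinib. It rose by 0.74 ± 0.0706 in ID8 and fell by 0.36 in PMJ2R (edgeR adjusted p = 2.08e-07 and 2.29e-06). Its exons share 487 bases with Aimp2 on the opposite strand, which had log2 fold changes of 0.75 and −0.21, and whether the counting used strand is not given in the sources used here. Eif2ak4 (chr2:118388618-118475234, plus strand), for GCN2, the sensor of amino acid shortage, stood at 29.9, 27.7 and 27.7 CPM in ID8 control and 30.1, 25.9 and 29.0 CPM with rebastinib. In PMJ2R it went from 53.4, 56.5 and 53.3 CPM to 26.8, 28.6 and 30.1 CPM, a fall of 0.93 on the log2 scale (edgeR adjusted p = 1.76e-10), and it was not called in ID8 (0.984). Eif2ak3, for the endoplasmic reticulum kinase PERK, rose in both lines by 0.51 and 0.57. It was called in neither with library totals alone, at 0.08 and 0.02. Together the kinase genes took 0.0196% ± 0.000523 of counts in PMJ2R control and 0.0105% ± 0.000244 with rebastinib, and 0.0166% and 0.0181% in ID8.

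The directions within eIF2 and its kinases depend on the scaling. With library totals alone, Eif2s1 fell in ID8 as well (−0.21, edgeR adjusted p = 0.0112), Eif2a and Eif2d stood at −0.17 and −0.08 there without a call, and Eif3g lost its call at 0.12. With trends of transcript length and GC content removed, Eif2d rose in PMJ2R (0.34, edgeR adjusted p = 3.42e-05). Eif2ak1, Eif2a and Eif3g then lost their calls in PMJ2R, at 0.06, −0.02 and −0.08. With RLE size factors or DESeq2 the PMJ2R calls of Eif2a and Eif2d were lost, at −0.10 and −0.12. Eif2s1 kept its fall in PMJ2R with library totals alone (−0.88) and with length and GC trends removed (−0.19). Eif2ak4 did so as well, at −1.49 and −0.49 in the same order. In ID8, Eif2ak4 stood at −0.44 with library totals alone and at 0.49 with the trends removed, and was called in each.

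eIF3, the largest initiation factor and the bridge between the messenger and the small subunit, rose for most of its genes. In ID8 13 of its 14 genes were higher and 0 lower, with a median of 0.89, and in PMJ2R 12 were higher and 2 lower, with a median of 0.85. With library totals alone, 10 were higher and 1 lower in ID8 and 9 were higher and 2 lower in PMJ2R, and the medians were 0.45 and 0.29. Eif3h, for a noncore subunit, stood at 268, 272 and 296 CPM in ID8 control and 620, 637 and 561 CPM with rebastinib. The PMJ2R values were 299, 293 and 290 CPM in control and 798, 779 and 755 CPM with rebastinib, and it had the smallest p of the complex there (log2 fold change 1.40 ± 0.0439, edgeR adjusted p = 4.77e-15). Eif3f stood at 188, 169 and 184 CPM in ID8 control and 538, 481 and 424 CPM with rebastinib, a rise of 1.41 ± 0.0873 (edgeR adjusted p = 2.67e-09), and rose by 1.26 in PMJ2R. Eif3a, for the large scaffold subunit and the most abundant of the complex in CPM, rose from 902, 945 and 930 CPM to 1300, 1410 and 1500 CPM in ID8. In PMJ2R it rose from 1060, 1070 and 1160 CPM to 2170, 2190 and 2250 CPM. Its log2 fold change was 0.60 ± 0.0766 and 1.01 ± 0.0487 (edgeR adjusted p = 4.46e-06 and 1.20e-12), and the ID8 call was lost at 0.17 with library totals alone.

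The exceptions in eIF3 were Eif3d and Eif3g. Eif3g (chr9:20894349-20898623, minus strand), for an RNA-binding subunit, stood at 102, 105 and 114 CPM in ID8 control and 175, 159 and 138 CPM with rebastinib. In the macrophage line its values were 267, 273 and 280 CPM in control and fell to 211, 222 and 213 CPM with rebastinib. The changes were 0.55 ± 0.0862 and −0.34 ± 0.0442 (edgeR adjusted p = 3.50e-05 and 1.02e-06). Eif3d, for the subunit that can itself bind a cap, was not called in ID8 at 0.15 and fell by 0.44 in PMJ2R. Its exons share 2151 bases with Gm17638 on the opposite strand, which stood at −0.01 and −0.49. In summed counts eIF3 took 0.430% ± 0.0125 in ID8 control and 0.583% ± 0.00446 with rebastinib, and 0.516% ± 0.00258 and 0.655% ± 0.000169 in PMJ2R, with no overlap.

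**Figure D2:**
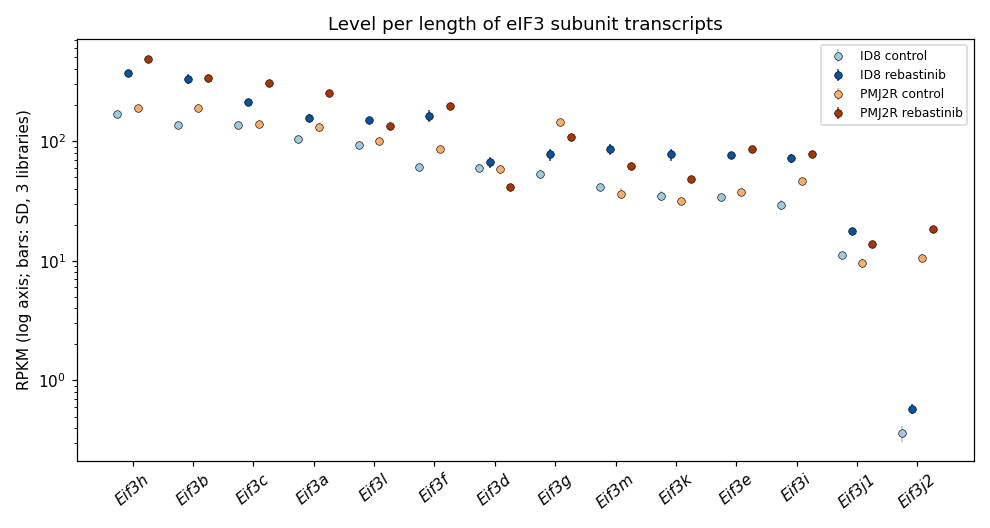
Level per exon length (RPKM, log axis) of the 14 eIF3 genes in the 4 groups, points at the mean and bars for the SD of 3 libraries. Eif3h is among the highest and Eif3j1 among the lowest in every group, Eif3d and Eif3g are lower with rebastinib in PMJ2R, and Eif3j2 is far lower in ID8 than in PMJ2R.

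Levels per length differed widely between the subunit genes. In ID8 control Eif3h was highest at 169 ± 9.17 RPKM, followed by Eif3b at 136 ± 2.08 and Eif3c at 136 ± 7.57, which did not differ beyond their spread. Eif3a stood at 104 ± 2.31, Eif3l at 91.8 ± 5.36, Eif3f at 61.2 ± 3.43 and Eif3d at 60.0 ± 4.37 RPKM, the last 2 again within their spread. Eif3e at 34.1 ± 2.27 and Eif3i at 29.5 ± 2.83 were lower, and Eif3j1, for the loosely bound subunit, stood at 11.1 ± 0.159 RPKM. These levels use the exon length of all annotated transcripts of a gene, which lowers genes with long or many alternative exons.

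The eIF4F group, formed by symbol, holds genes of the cap complex and relatives such as Eif4e2 and Eif4g2, and it moved in both directions. In ID8 3 of its 7 tested genes rose, 1 fell and 3 were not called, with a median of 0.17. In PMJ2R 6 of 8 rose and 1 fell, with a median of 0.32. With library totals alone the medians were below 0, at −0.27 and −0.23, and 5 of 7 genes in ID8 and 4 of 8 in PMJ2R were lower. Eif4e, for the cap-binding protein itself, stood at 107, 110 and 117 CPM in ID8 control and 209, 217 and 196 CPM with rebastinib. In PMJ2R it rose from 220, 231 and 230 CPM to 484, 488 and 482 CPM, and the log2 fold changes were 0.90 ± 0.0700 and 1.09 ± 0.0430 (edgeR adjusted p = 2.70e-08 and 8.10e-14). Eif4e2, for a cap-binding relative that represses translation, stood at 84.1, 83.5 and 88.1 CPM in ID8 control and 212, 208 and 194 CPM with rebastinib, and rose by 1.27 ± 0.0679 (edgeR adjusted p = 7.00e-10). In PMJ2R it rose by 0.89.

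The helicase and scaffold genes of the eIF4F group, which include its most abundant members, differed among themselves. Eif4a1 stood at 1250, 1280 and 1410 CPM in ID8 control and 1580, 1470 and 1390 CPM with rebastinib, which overlap, and at 1060, 1010 and 964 CPM and 1130, 1090 and 1100 CPM in PMJ2R. Its log2 fold change was 0.17 ± 0.0804 in ID8 (edgeR adjusted p = 0.0646) and 0.13 ± 0.0470 in PMJ2R (0.0197), and it turned to −0.27 and −0.43 with library totals alone. Eif4g1, for the scaffold, rose from 999, 972 and 912 CPM to 1040, 1170 and 1200 CPM in ID8, a log2 fold change of 0.24, and by 0.15 in PMJ2R, and was called lower with library totals alone, at −0.19 and −0.41. Eif4g2, for a scaffold that lacks the Eif4e site, stood at 1050, 1070 and 1030 CPM in ID8 control and 921, 1080 and 1090 CPM with rebastinib, with overlap. In PMJ2R it went from 1360, 1410 and 1330 CPM to 1960, 1920 and 1910 CPM, a rise of 0.50 ± 0.0443 (edgeR adjusted p = 7.03e-09) that was −0.06 and not called with library totals alone (0.205). Eif4g3, for a further scaffold, fell in both lines, by 0.58 and 0.55, from 210, 199 and 189 CPM to 127, 134 and 138 CPM in ID8 and from 194, 215 and 233 CPM to 150, 143 and 144 CPM in PMJ2R. With trends of length and GC content removed it was called in neither line, at 0.03 and −0.05. The summed share of counts of the eIF4F group, relatives included, was 0.453% ± 0.00388 in ID8 control and 0.377% ± 0.0211 with rebastinib. In PMJ2R it was 0.523% ± 0.00408 and 0.446% ± 0.00237. Among the initiation groups, those of eIF2B and the eIF2 kinases were also lower in PMJ2R and higher in ID8.

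The partners of eIF4F rose and its repressor gene fell. Eif4b, for a protein that stimulates the helicase, stood at 695, 696 and 718 CPM in ID8 control and 1660, 1580 and 1520 CPM with rebastinib. In PMJ2R it stood at 988, 1010 and 1010 CPM in control and 2060, 2080 and 2050 CPM with rebastinib, with no overlap in either line (log2 fold change 1.17 ± 0.0731 and 1.04 ± 0.0432, edgeR adjusted p = 2.91e-09 and 1.62e-13). Eif4h, for another helicase cofactor, rose by 0.88 and 0.80, and Eif4a3, the helicase of the exon junction complex, by 0.84 and 0.63, where the PMJ2R value was 0.08 and not called with library totals alone. Eif4enif1, for the transporter that takes eIF4E to the nucleus, rose by 0.46 and 0.24, which turned to 0.02 without a call and to −0.32 with library totals alone. Eif4ebp2, for a repressor that sequesters eIF4E until mTORC1 phosphorylates it, fell by 0.22 in ID8 and by 0.62 in PMJ2R. With length and GC trends removed it rose in ID8 (0.29, edgeR adjusted p = 0.00022) and was not called in PMJ2R (−0.07). Its relative Eif4ebp1, no member by the rule, rose by 1.28 and 1.65.

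The late initiation factors held some of the largest changes. Eif5b (chr1:37998010-38055579, plus strand), for the GTPase that joins the large subunit, stood at 197, 208 and 215 CPM in ID8 control and 717, 602 and 582 CPM with rebastinib. The PMJ2R values were 290, 296 and 324 CPM in control and 683, 670 and 694 CPM with rebastinib. The log2 fold changes were 1.62 ± 0.0852 and 1.17 ± 0.0484 (edgeR adjusted p = 5.92e-10 and 1.59e-13), with the smallest p of all members in ID8. Its exons share 1643 bases with Rev1 on the opposite strand, which rose by 1.04 and 1.11 at a lower level. Eif6 (chr2:155819832-155826925, minus strand), for the factor that keeps the large subunit from joining early, stood at 98.1, 95.9 and 110 CPM in ID8 control and 290, 259 and 221 CPM with rebastinib. In PMJ2R it moved only from 94.4, 98.8 and 92.6 CPM to 112, 119 and 117 CPM. Its rise was 1.34 ± 0.0943 in ID8 and 0.28 ± 0.0494 in PMJ2R (edgeR adjusted p = 9.87e-09 and 4.35e-05), and with library totals alone the PMJ2R value turned to −0.28. Eif5, for the protein that triggers GTP hydrolysis on eIF2, was not called in ID8 (−0.07) and rose by 0.20 in PMJ2R, and was called lower in both with library totals alone, at −0.50 and −0.36.

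eIF5A, the protein that carries the amino acid hypusine and helps ribosomes through difficult stretches, gave the largest rise of all members in ID8. Eif5a (chr11:69916714-69921958, minus strand) stood at 1030, 1010 and 1080 CPM in ID8 control and 3870, 3330 and 2890 CPM with rebastinib. In the macrophage line its values were 1390, 1400 and 1440 CPM in control and 3140, 3080 and 3000 CPM with rebastinib. The treated ID8 libraries spread widely but all lay far above control, and the log2 fold change was 1.70 ± 0.101 in ID8 and 1.12 ± 0.0451 in PMJ2R (edgeR adjusted p = 1.88e-09 and 1.07e-13). Its copy Eif5a2, 73.2% identical over the aligned coding bases, was not called in ID8 (−0.06). Dohh, the hydroxylase that completes hypusine, rose in both lines as well, by 1.83 and 1.10.

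**Figure D3:**
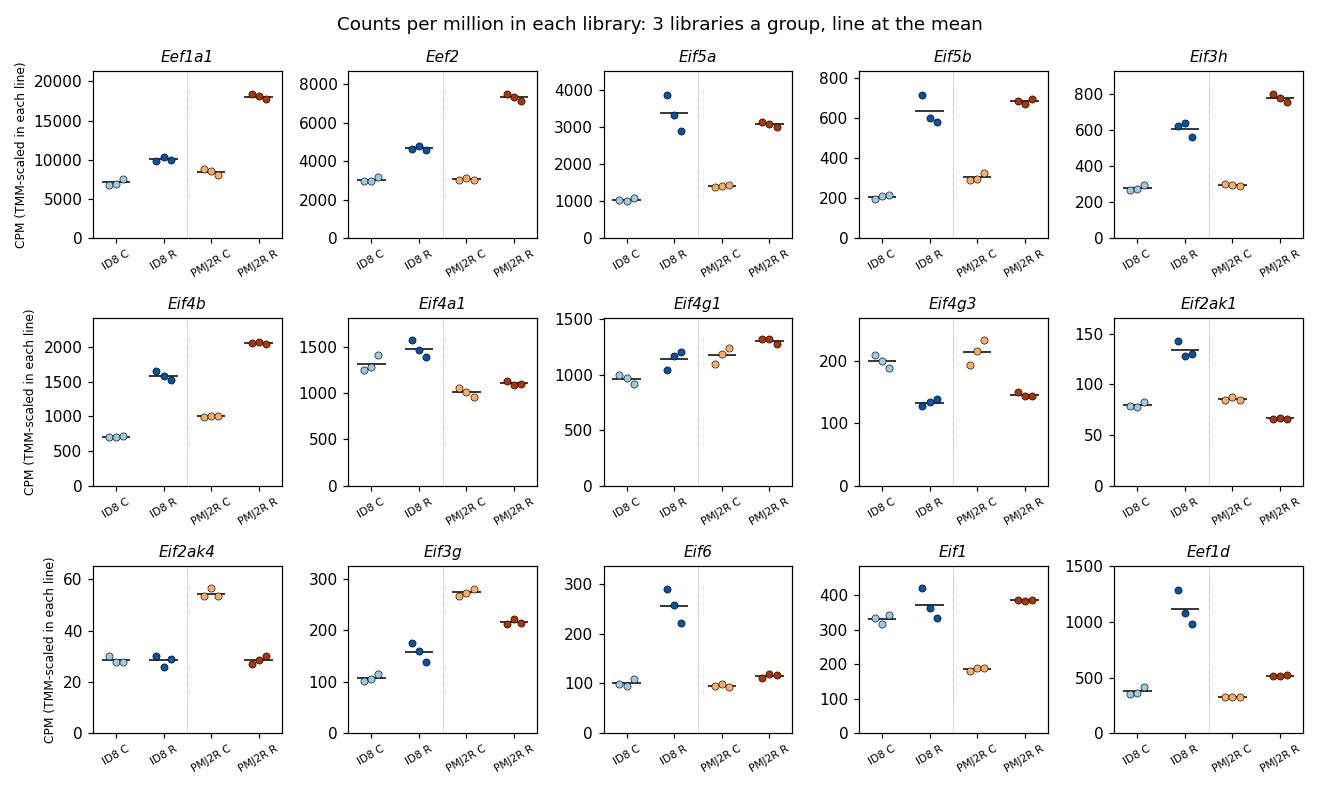
CPM, scaled within each line, in every library for 15 translation factor genes, with a line at the mean of 3 libraries and each y axis starting at 0. C is control and R rebastinib. Eif5a, Eif5b, Eif4b, Eif3h, Eef1a1 and Eef2 are separated by treatment in both lines, Eif4a1 overlaps in ID8, and Eif2ak1, Eif3g and Eif6 differ in their change between the lines.

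Elongation factor genes of the eEF1 group were among the most changed. Eef1a1 (chr9:78478449-78489151, minus strand), whose start carries the pyrimidine tract printed above, stood at 6820, 6920 and 7550 CPM in ID8 control and 9850, 10300 and 10000 CPM with rebastinib. In PMJ2R it stood at 8790, 8500 and 8060 CPM in control and 18400, 18100 and 17700 CPM with rebastinib. The groups did not overlap, and the log2 fold change was 0.50 ± 0.0831 in ID8 and 1.10 ± 0.0515 in PMJ2R (edgeR adjusted p = 6.34e-05 and 8.50e-13), but in ID8 it was 0.07 and not called with library totals alone. The exchange factor subunits showed the reverse order between lines. Eef1g, the most abundant of them, rose from 1130, 1150 and 1200 CPM to 3490, 3010 and 2690 CPM in ID8 and from 1250, 1300 and 1230 CPM to 2840, 2740 and 2780 CPM in PMJ2R, by 1.40 ± 0.0948 and 1.14 ± 0.0458 (edgeR adjusted p = 6.64e-09 and 1.02e-13). Eef1d stood at 353, 363 and 416 CPM in ID8 control and 1290, 1080 and 981 CPM with rebastinib, and at 322, 322 and 327 CPM and 516, 515 and 519 CPM in PMJ2R. It rose by 1.57 ± 0.102 and 0.67 ± 0.0416 (edgeR adjusted p = 4.36e-09 and 3.80e-11). Eef1b2 rose by 1.53 and 1.19. Eef1e1, whose product sits in the complex of aminoacyl tRNA synthetases, was the exception of the group and fell by 0.47 and 0.44.

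eEF2 and its kinase rose in both lines. Eef2 (chr10:81176631-81182498, plus strand), for the translocase, stood at 2990, 2950 and 3150 CPM in ID8 control and 4610, 4780 and 4600 CPM with rebastinib. The PMJ2R values were 3040, 3140 and 3040 CPM in control and 7500, 7340 and 7100 CPM with rebastinib, with all treated libraries above all controls. The log2 fold change was 0.62 ± 0.0769 in ID8 and 1.25 ± 0.0477 in PMJ2R (edgeR adjusted p = 3.40e-06 and 5.34e-14). Eef2k, for the kinase that inactivates eEF2, stood at 14.0, 13.0 and 13.7 CPM in ID8 control and 38.6, 33.2 and 39.0 CPM with rebastinib, and at 35.0, 35.9 and 35.3 CPM and 52.1, 52.7 and 55.8 CPM in PMJ2R. It rose by 1.45 ± 0.0939 and 0.60 ± 0.0581 (edgeR adjusted p = 4.30e-09 and 2.51e-08), the reverse order of Eef2 itself, and the PMJ2R call was lost at 0.04 with library totals alone. Eef2kmt, which methylates eEF2, was not called in ID8 (−0.21, edgeR adjusted p = 0.0534) and fell by 0.91 in PMJ2R, from 35.5, 35.2 and 34.8 CPM to 17.8, 19.8 and 18.6 CPM.

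The 4 genes for methyltransferases that modify lysines of eEF1A are too few for their counts to be set apart from all genes. In ID8 1 of 4 rose, 1 fell and 2 were not called, beside 38.4% of all genes higher and 42.0% lower. In PMJ2R 0 rose, 2 fell and 2 were not called, with a median of −0.59, beside 40.1% of all genes higher and 43.6% lower. Eef1akmt1 stood at 17.6, 16.6 and 19.3 CPM in ID8 control and 22.9, 20.5 and 16.8 CPM with rebastinib, with overlap, and went from 23.4, 21.3 and 19.5 CPM to 13.2, 11 and 11.3 CPM in PMJ2R. It fell there by 0.85 on the log2 scale (edgeR adjusted p = 2.11e-07). Eef1akmt4 fell by 1.25 in PMJ2R from 6.73, 7.56 and 6.01 CPM to 2.11, 3.24 and 3.17 CPM. Eef1akmt2 stood at 9.25, 9.65 and 11.1 CPM in ID8 control and 7.59, 6.77 and 7.47 CPM with rebastinib, fell by 0.45 there and was not called in PMJ2R (−0.05). Eef1akmt3, near 1 CPM, rose by 1.16 in ID8 (edgeR adjusted p = 0.00973), and this call was lost without ID8 rebastinib library 2 (0.86, edgeR adjusted p = 0.0587) and with library totals alone (0.73, 0.0768).

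The difference of the rebastinib response between lines was tested over all 12 libraries as PMJ2R minus ID8. Of 62 members tested, 12 differed with a higher value in PMJ2R, 33 with a lower value, and 17 were not called. The 17 include Eif4e3, with 0 counts in ID8, and Eif5a2, with 2 counts in PMJ2R control and 0 with rebastinib. For these the test could not show a difference, as 1 line has no response to measure. Over all 16566 genes 52.4% were called, 21.8% higher and 30.6% lower. The members' median was −0.28 and that of all genes −0.10. With RLE size factors the medians were −0.16 and 0.02, 13 members were higher and 26 lower, and 50.4% of all calls were in the higher direction in place of 41.7%. DESeq2 gave −0.16 and 0.03, with 13 members higher and 27 lower and 50.9% of calls higher. Members with the smallest p were Eif2ak1 at −1.16 ± 0.0868, Eif6 at −1.11 ± 0.111, Eif3g at −0.95 ± 0.101, Eif2ak4 at −0.99 ± 0.109, Eif1 at 0.82 ± 0.0967 and Eef1d at −0.95 ± 0.112. Their edgeR adjusted p ran from 1.13e-10 for Eif2ak1 to 1.57e-07 for Eef1d. Higher in PMJ2R were the 2 central elongation GTPase genes, Eef1a1 by 0.54 and Eef2 by 0.57, while the eEF1B subunit genes and Eef2k were lower, as were all 4 eIF2B genes that were called. With RLE size factors or DESeq2, Eef1b2 (−0.27) and Eef1g (−0.19) were not called for this difference, while Eef1d was, at −0.83. Each of the 5 members with opposite calls in the lines was called for the difference, from −0.47 for Eif2a to −1.16 for Eif2ak1. The opposite calls came from the same libraries, so this outcome was all but set by the choice and is no further support. In the eIF4F group, 6 of 8 were not called, among them Eif4e3, which could not be compared.

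**Figure D4:**
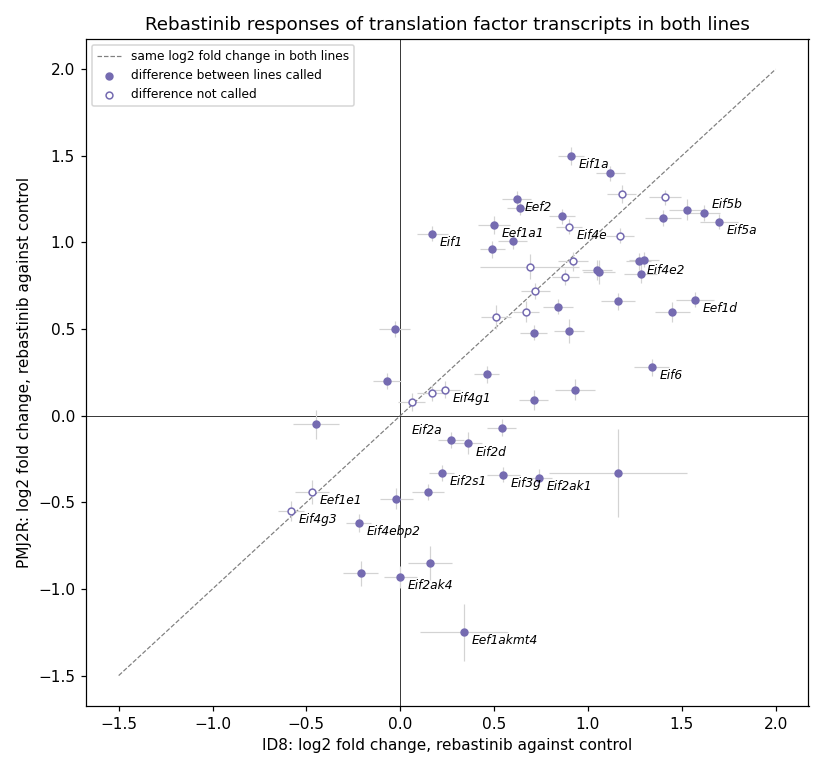
Log2 fold change with rebastinib in ID8 (x axis) and PMJ2R (y axis) for members tested in both lines, bars for the standard error and a dashed line where both are equal. Filled points differed between lines by the test over all 12 libraries. Most points lie in the upper right, Eif2ak1, Eif3g, Eif2s1, Eif2a and Eif2d lie right of 0 and below 0, and Eif1, Eef1a1 and Eef2 lie above the dashed line.

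Untreated cells of the lines differed in which less abundant copies of some factors had transcripts, while Eif4e and Eif5a were far more abundant than Eif4e3 and Eif5a2 in both. In the comparison of control cells 62 members were tested, of which 40 were higher in PMJ2R, 10 lower and 12 not called, beside 82.3% of 15924 genes called, 39.4% higher and 42.9% lower. At a difference of 2-fold or more, 10 members were higher and 1 lower, beside 43.7% of all genes, 18.1% higher and 25.6% lower. The members' median was 0.33, beside −0.03. Eif4e3, for a cap-binding relative of eIF4E, had 0 counts in ID8 control and stood at 6.26, 7.02 and 7.04 CPM in PMJ2R control, at least 158-fold higher when ID8 is set to a floor of 3 counts for its whole group. With rebastinib it rose in PMJ2R by 0.55, from 5.35, 6.00 and 5.88 CPM to 9.20, 8.89 and 7.17 CPM on the scale of that line, and with library totals alone this was −0.01 and not called (edgeR adjusted p = 0.953). Eif5a2 was the reverse, with 15.9, 16.8 and 14.2 CPM in ID8 control and 2 counts over all PMJ2R control libraries, a ratio of 571 with a 95% interval of 158 to 4720 that covers counting error only. Eif5a itself was 0.42 higher in PMJ2R.

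Among the other control differences, Eif2s3x stood at 116, 116 and 112 CPM in ID8 and 374, 378 and 345 CPM in PMJ2R, a log2 difference of 1.67 ± 0.0601 (edgeR adjusted p = 8.89e-16). Eif1ad was higher in PMJ2R by 1.58, at 325, 333 and 320 CPM beside 108, 105 and 114 CPM, and 428 bases of its exons are shared with the abundant Banf1 on the opposite strand. Eef1akmt3 was higher by 1.86 at low levels, 1.73, 1.58 and 2.37 CPM beside 0.463, 0.511 and 0.573 CPM. Lower in PMJ2R were Eif1, with a log2 difference of −0.85, at 212, 222 and 225 CPM beside 398, 382 and 408 CPM, and Eif2ak3, with −0.67, at 25.4, 27.3 and 25.0 CPM beside 42.6, 42.6 and 38.4 CPM. Eif4a1 was lower as well, with a log2 difference of −0.40, at 1240, 1180 and 1150 CPM beside 1500, 1540 and 1670 CPM, a difference that was 0.01 with length and GC trends removed. Eef2 was not called, at 3590, 3550 and 3740 CPM in ID8 and 3550, 3670 and 3640 CPM in PMJ2R with overlap (edgeR adjusted p = 0.987).

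Eif3j1 and Eif3j2 need care in any comparison. Their coding sequences are identical at all 786 aligned bases, so reads from there cannot be told apart, and the treatment of such reads is not given in the sources used here. The exons of Eif3j1 also share 1107 bases with Spg11 on the opposite strand. With rebastinib Spg11 had log2 fold changes of −0.73 in ID8 and −0.81 in PMJ2R. Eif3j2 stood at 1.07, 1.21 and 0.882 CPM in ID8 control and 28.8, 30.6 and 26 CPM in PMJ2R control, a log2 difference of 4.76 ± 0.135 (edgeR adjusted p = 1.83e-17). Eif3j1 stood at 78.8, 80.7 and 77.2 CPM and 60.9, 59.9 and 68.5 CPM, a difference of −0.32 that was 0.10 and not called with length and GC trends removed. With rebastinib Eif3j1 rose by 0.67 and 0.60 (0.04 and not called in PMJ2R with library totals alone) and Eif3j2 by 0.69 and 0.86, and the ID8 call of Eif3j2 (edgeR adjusted p = 0.0269) was lost with DESeq2 (0.0579) and without several single libraries, among them ID8 control library 3 (0.105). Other copies were less alike, from 56.9% for Eif4e and Eif4e3 to 86.3% for Eif2s3x and Eif2s3y.

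Genes that act on these factors were taken from 6 further lists. Beside the counts of all 6 stand the shares over all genes tested, 38.4% higher and 42.0% lower in ID8 and 40.1% and 43.6% in PMJ2R. Some of the counts are near these shares. The lists were not counted with library totals alone. Of 16 genes of mTORC1 and MNK signalling, 5 rose and 8 fell in ID8 and 4 rose and 11 fell in PMJ2R. Mlst8, a core subunit of mTORC1, fell by 1.83 and 2.15, from 21.6 ± 1.23 to 6.08 ± 0.598 CPM in ID8 and from 23.3 ± 0.907 to 5.25 ± 0.366 CPM in PMJ2R on the scale of all libraries. Larp1, whose product binds pyrimidine-tract messengers, rose by 1.14 and 1.55, and Mknk2, for a kinase of eIF4E, fell by 0.65 and 1.64. Of 9 genes of eIF2 phosphorylation and stress, 3 rose and 3 fell in ID8 and 6 rose and 3 fell in PMJ2R. Ppp1r15a, for the phosphatase subunit that reverses eIF2 phosphorylation, rose by 0.48 in ID8 and 2.35 in PMJ2R. Impact, for an inhibitor of GCN2 activation, rose by 1.17 and 2.09, and the kinase gene Eif2ak2, for PKR, fell by 2.03 and 2.40. The stress factor gene Atf4 fell by 0.39 in ID8 and rose by 0.75 in PMJ2R, a difference of 1.08 ± 0.0902 (edgeR adjusted p = 7.57e-10).

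Of 15 genes for scanning, reinitiation and poly(A) binding, 9 rose and 3 fell in ID8 and 10 rose and 4 fell in PMJ2R. Pabpc4, for a poly(A)-binding protein, rose by 1.14 and 0.75, Denr, for a reinitiation factor, rose by 1.21 and 0.43, and Larp4, for a protein that binds the poly(A) tail, rose by 1.36 in PMJ2R and was not called in ID8 (0.21). Of 7 tested genes for termination and recycling, 4 rose and 1 fell in ID8 and 4 rose and 2 fell in PMJ2R. Ltn1, for the ligase that tags stalled nascent chains, fell by 1.18 and 0.72, while Gspt1 rose by 0.49 and 0.20 and Abce1 by 0.46 and 0.69. Of 9 genes for diphthamide and hypusine, the modified residues of eEF2 and eIF5A, 4 rose and 4 fell in ID8 and 3 rose and 3 fell in PMJ2R. Dph1 of the diphthamide pathway was lower by 1.20 and 1.59, while Dnajc24 rose by 1.08 in ID8 and was not called in PMJ2R. Of 10 mitochondrial translation factors, 6 rose and 3 fell in ID8 and 5 rose and 3 fell in PMJ2R. The initiation factor gene Mtif2 fell by 2.48 and 2.36. Tufm rose by 0.98 and 0.76, and Mtif3 rose by 1.16 in ID8 and was not called in PMJ2R (−0.04).

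Transcript length moved with the rebastinib response over all genes. In 4 equal sets of genes ordered from the shortest to the longest exon length, the median log2 fold change was 0.44, 0.03, −0.23 and −0.31 in ID8, and that of the members was 0.55, 0.72, 0.51 and 0.60. In PMJ2R the medians were 0.35, −0.10, −0.26 and −0.19 over all genes and −0.05, 0.77, 0.59 and 0.55 over members, with 7 members in the shortest set. The members' medians in ID8 did not fall in that order. With length and GC trends removed, 54 of 61 members were higher and 2 lower in ID8, beside 7014 of 14808 genes higher and 5148 lower. In PMJ2R 46 of 61 members were higher and 7 lower, beside 6431 of 13988 genes higher and 5217 lower. The median of all genes then stood at 0.20 in ID8 and 0.13 in PMJ2R. Over all genes that setting moved the share of calls that were higher to 57.7% in ID8 and 55.2% in PMJ2R. Between control cells it moved to 63.3%, where 54 of 62 members were higher and 3 lower, beside 8764 of 15899 genes higher.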

How the data were processed

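The authors deposited a table of whole-number counts, not normalized, with 55421 Ensembl identifiers in rows and 12 libraries in columns. Per the submitters' processing notes, the build was GRCm38 and the tools included STAR 2.6.1c, FastQC, DESeq2 and featureCounts, in no stated role. How strand and multiply matching reads were handled, and which annotation was counted, is not given in the sources used here. Symbols, lengths and positions came from GENCODE vM21, where 181 identifiers (0.00261% of counts) had no symbol. Promoter windows came from RefSeq (GRCm38.p6). No sequence of proteins was used here.

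Groups and replicate numbers came from the sample titles. Each line's rebastinib libraries were compared with its controls, the difference between lines was an interaction contrast over 12 libraries, and control cells were compared between lines. All used edgeR 4.0.16 in R 4.3.3 with genes kept by its default expression filter, TMM scaling and the robust quasi-likelihood test on all genes, with Benjamini-Hochberg adjustment at 0.05. A standard error is the log2 fold change divided by the square root of F. CPM values use the TMM factors of the same fit, so they compare only within it. RPKM values use factors over all 12 libraries and the union of a gene's exons. Floors are 3 counts over a group. Intervals and floors cover counting error only.

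The members, the role groups, the pathway lists and the tests were chosen with earlier results of these data known. Values in every library were given, per role group, for the member with the highest CPM and those with the smallest p in each line, for the 6 smallest p of the difference, for up to 5 control differences per direction, and for members with opposite calls. From each pathway list the genes with the smallest p in each line were named. Mtor list genes Mlst8 and Larp1 in PMJ2R, Mknk2 in ID8, Atf4 and the other line's value of a named gene were added after values were seen, as were further members given by fold change alone.

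The scripts were tested on simulated counts with known changes. Replicate pairs were compared by chi-square per degree of freedom, which lay between 1.72 and 23.5, above sampling noise for every pair. Alternatives were DESeq2 1.42.0, limma-voom (limma 3.58.1), RLE size factors, library totals alone, a fit without the filter, a minimum mean of 5 CPM, all 12 libraries in a fit, removal of length and GC trends, the replicate number as a block, and leaving out each library. The chemotherapy arms named in the design are not analysed here.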

Additional observations from a re-analysis of the deposited data

Results flagged for a closer look

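Members whose rebastinib response differed between the lines are given as PMJ2R minus ID8 on the log2 scale, from the interaction test of edgeR over 12 libraries. The 6 with the smallest p were Eif2ak1 (−1.16), Eif6 (−1.11), Eif3g (−0.95), Eif2ak4 (−0.99), Eif1 (0.82) and Eef1d (−0.95). The difference was also called for the other members that were higher in ID8 and lower in PMJ2R, Eif2s1 (−0.60), Eif2a (−0.47) and Eif2d (−0.57). Those members were chosen by opposite calls in the same libraries, so their calls here were all but set in advance. Each of these 9 differences kept its sign and its call under every alternative run. Eif2ak1 then ranged from −1.23 to −1.04, and Eif2a, the smallest, from −0.70 to −0.34. The share of counts from genes overlapping ribosomal RNA also differed between the lines, at 5.82% in PMJ2R with rebastinib and 1.23% in ID8 with rebastinib, and its part in these differences was not tested.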

How the results depend on the processing

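The number of members called higher in ID8 ranged from 43 to 49 and lower from 3 to 5 when a library was left out. In PMJ2R the ranges were 40 to 42 and 12 to 14, for the difference between lines 8 to 11 and 30 to 35, and between control cells 37 to 41 and 9 to 11. With library totals alone 17 members were lower in ID8 and 27 were higher and 25 lower in PMJ2R. With length and GC trends removed 2 were lower in ID8, 7 lower in PMJ2R, 7 higher for the difference between lines and 3 lower between control cells, and with all 12 libraries in a fit 6 were lower between control cells. Library totals moved the median of all genes to −0.50 in ID8 and −0.60 in PMJ2R. The gap between the members' median and that of all genes fell to 0.33 in PMJ2R with no expression filter. With library totals it stood at 0.76 in ID8 and 0.64 in PMJ2R, where it was bound to stay because scaling moves all genes nearly alike. For the difference between lines the gap ran from −0.41 to −0.10.

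Some members changed sign. In ID8 Eif2ak4 was 0.04 with DESeq2 and with RLE size factors, 0.49 with trends removed, 0.03 without control library 1 and 0.07 without rebastinib library 2, in a range from −0.04 over single libraries left out. Eif4g2 was 0.01 with DESeq2 and with RLE size factors, 0.43 with trends removed and 0.05 without rebastinib library 1. Eif5a2 was 0.28 with trends removed and from −0.16 to 0.03 with a library left out. With library totals alone Eif1, Eef1akmt1 and Eif4a1 were each −0.27, Eif2s1 −0.21, Eif2a −0.17 and Eif2d −0.08, and Eef1akmt1 was −0.11 with trends removed. In PMJ2R library totals gave Eif2b2 −0.07, Eif4g2 −0.06, Eif6 −0.28, Eif4e3 −0.01 and Eif4a1 −0.43, and Eif4a1 was −0.08 with no filter. Trends removed gave Eif2b5 0.25, Eif2ak1 0.06 and Eif2d 0.34 there, and Eif4a1 0.01 and Eif3j1 0.10 between control cells. The cause was not tested. Of the named members' other values, 754 kept direction and call under a changed setting, 25 lost the call and 19 gained one. Without a library 592 kept both, 12 lost the call and 4 gained one.

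Deviations from group means correlated from −0.2255 to 0.0338 between same-numbered libraries and from −0.0841 to 0.1674 between differently numbered ones. With 3 libraries a group these values are tied together, so they cannot tell whether the replicate numbers pair the samples. With the replicate block 43 members were higher and 4 lower in ID8, 42 and 14 in PMJ2R, 8 and 30 for the difference between lines, and 40 and 9 between control cells. At these depths, members under 50 counts in all could not be compared.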
